A study of Mus musculus with 4 samples.

Results

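NIH-3T3 fibroblasts treated with CA39 were compared with the same cells treated with AR7 and with CA77. NIH-3T3 is an established mouse embryonic fibroblast line. AR7 is a small molecule that activates chaperone-mediated autophagy (CMA) and binds retinoic acid receptor alpha (RARα), and CA39 and CA77 are analogues developed from it. Cells were grown to confluence in medium with serum, given 20 µM of one of the compounds in DMSO and collected after 24 h, so the dose and the time matched for all 3 compounds. The remaining culture had no treatment, and the labels give it no vehicle. Its level is printed beside the others for orientation, and no gene was called against it. Where a difference from untreated cells is given, the text says so. RNA of each culture was labelled with Cy3 and hybridised to 1 Agilent mouse expression array. The 3 compound arrays lay in the same row of the slide, whereas the untreated array lay in the other row. The untreated, AR7 and CA39 arrays were scanned together and CA77 in another scan, so the difference of CA39 from AR7 is also the difference within a scan. Each group had 1 array and no replicate culture. No test between groups was therefore possible, and a difference between compounds and a difference between cultures cannot be told apart.

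The members were the 3 compound arrays of the 4 in the series. Levels are normalized intensities on the log2 scale, where a difference of 1 is 2-fold. A gene was compared where a probe was well above background on all 3 compound arrays, which held for 27178 of the 55681 probes and gave 20620 genes, 13026 of them with a gene symbol. A gene was called higher or lower with CA39 only if it differed at least 2-fold in that direction from AR7 and also from CA77. The only error that could be measured on these arrays was that between spots. For the probes printed at several places the median SD over the compound arrays was 0.10, which gives an SD of 0.15 for a difference of 2 arrays and 0.13 for a difference from the mean of AR7 and CA77. This error leaves out the spread between cultures. The median of all genes differed by -0.02 between CA39 and the mean of the other compounds.

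In CMA, the chaperone Hsc70 (Hspa8) recognises a motif in a cytosolic protein, and the lysosomal receptor Lamp2a passes the unfolded protein through the lysosomal membrane. RARα is a nuclear receptor that represses or activates its target genes, depending on ligand and on corepressors such as N-CoR1 (Ncor1). Fibroblasts in culture make much of the extracellular matrix, and they secrete chemokines and acute phase proteins when NF-kB is active. They make cholesterol and fatty acids through enzymes under the control of the SREBP factors. They detoxify electrophilic compounds through enzymes that NRF2 and the aryl hydrocarbon receptor control.

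CA39 stood apart from the other compounds. Of the 20620 genes, 466 were called higher with CA39 than with each of AR7 and CA77, which is 2.26%, and 223 were called lower, which is 1.08%. Of these, 366 of the higher and 185 of the lower genes had a symbol. With no filter on dim probes, 1154 of 36840 genes were higher and 483 lower. With probes in grid rows over 160 only, 262 of 13240 were higher and 142 lower. The SD of the log2 differences was 0.51 for CA39 and AR7 and 0.50 for CA39 and CA77, whereas it was 0.25 for CA77 and AR7. Past 2-fold in either direction lay 882 genes (4.28%) between CA39 and AR7, 897 (4.35%) between CA39 and CA77, and 154 (0.747%) between CA77 and AR7. The last count was 244 to 253 from the scanner's processed signals, and with no filter on dim probes the 3 counts were 2687, 2748 and 1613. All 3 pairs of compounds were compared at the same dose and time, and none of these differences had a replicate culture behind it. A difference of at least 4 on the log2 scale, which is 16-fold, from each of the other compounds was found for 11 genes higher and 16 genes lower with CA39. The smaller of a gene's differences was 1.005 in the member just inside and 0.9999 in the one just outside the threshold on the higher side, and -1.003 and -0.9992 on the lower side, so the called genes merged with the rest with no gap.

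**Figure D1:**
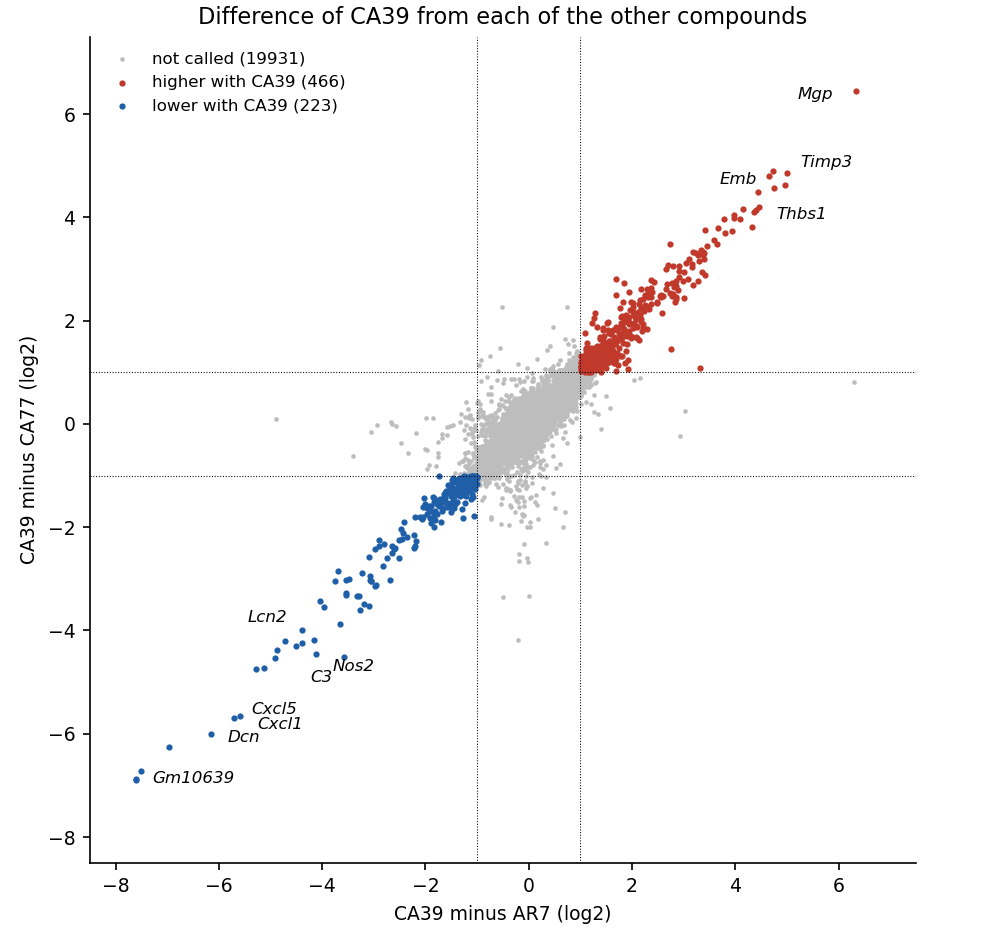
Each point is 1 of 20620 genes, with the log2 difference of CA39 from AR7 on the horizontal axis and from CA77 on the vertical axis, and dotted lines at 2-fold. The 466 red and 223 blue genes passed 2-fold in the same direction against both arrays and lie along the diagonal, with Mgp at 6.33 and 6.45 and Cxcl1 at -5.59 and -5.66.

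The part of position on the array in these counts was not tested. On the CA39 array 317 of the 1588 probe spots that deviated upwards sat in small groups of neighbours, and so did 20 of the 597 that deviated downwards. Of the called genes, 38 higher and 2 lower had such a spot, and they were left out of the leading genes. In grid rows to 160 the called share was 2.58% higher and 1.04% lower, and in the rows above it was 2.03% and 1.11%. Restricted to probes in grid rows over 160, 28 of 13240 genes passed 2-fold between CA77 and AR7.

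Of the compared genes, the one farthest above both other compounds was Mgp, which encodes matrix Gla protein, an inhibitor of calcification of the matrix. Its level was 14.01 with CA39, 7.68 with AR7, 7.56 with CA77 and 8.38 in untreated cells, so it was 83.9-fold higher with CA39 than with the other compounds. Timp3, a matrix-bound inhibitor of metalloproteinases, was at 13.22 with CA39, 8.21 with AR7, 8.36 with CA77 and 8.87 untreated, a 30.6-fold difference. Thbs1 (thrombospondin 1), an adhesive glycoprotein that can release TGF-beta from its latent form, was at 17.32 with CA39, 12.85 with AR7, 13.11 with CA77 and 13.62 untreated. In all 3 genes CA39 stood alone above the other 3 arrays, and AR7 and CA77 were below untreated cells.

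Among the leading 15 genes that were higher with CA39 were also genes of collagen processing. P4ha2, a subunit of the enzyme that hydroxylates prolines of collagen, was at 12.80 with CA39 against 9.22 with AR7, 9.23 with CA77 and 9.21 untreated. Adamts2, the protease that removes the amino-terminal propeptide of procollagen, was at 13.58 against 9.49, 9.60 and 9.91. Pmepa1, a feedback inhibitor of TGF-beta signalling, was at 11.23 against 7.44, 7.27 and 8.15, and its second probe differed by 3.72 from AR7 and 3.83 from CA77. These genes again had a high CA39 array and 3 low ones. Emb (embigin, a cell adhesion protein of the basigin family) differed by 4.75 from AR7 and 4.56 from CA77, Ppic (cyclophilin C) by 4.15 and 4.16, Defb41 (a beta-defensin) by 4.97 and 4.63, and Aldh1l1, a folate enzyme, by 3.80 and 3.70. Tmsb4x, which encodes the actin-binding peptide thymosin beta 4, differed by 4.41 and 4.15, and Klhl30 by 3.97 and 4.06. For Tubb2b, a beta-tubulin, the brightest probe differed by 3.67 and 3.79 but a second probe only by 1.77 and 1.92. The other leading genes were Hbq1b, a theta globin, and Hp, which encodes haptoglobin. Hp was at 12.98 with CA39, 9.003 with AR7, 8.978 with CA77 and 11.60 untreated, so a large part of its difference came from levels with AR7 and CA77 that were below untreated cells.

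The 15 leading genes that were lower with CA39 held copies of alpha-class glutathione transferases, chemokines and secreted proteins of inflammation. Gm10639 and Gm3776, related copies of the Gsta family, were at 7.73 and 7.71 with CA39, 15.35 and 15.22 with AR7 and 14.60 and 14.43 with CA77. Untreated cells were at 7.48 and 7.56, so for this pair the CA39 array was near the untreated one. The copies are close in sequence, and their probes may read the same transcripts.

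Dcn encodes decorin, a small proteoglycan that binds collagen fibrils. It was at 11.46 with CA39, 17.61 with AR7, 17.46 with CA77 and 17.15 untreated, which is 67.6-fold lower with CA39. Cxcl5 and Cxcl1 encode chemokines that attract neutrophils. Cxcl5 was at 12.14 with CA39, 17.84 with AR7, 17.83 with CA77 and 17.32 untreated, a 51.9-fold difference, and Cxcl1 at 11.10, 16.69, 16.76 and 16.11, a 49.4-fold difference. In these genes the CA39 array was low and the other 3 were high and close together.

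Prl2c1 and Prl2c5, placental hormone genes of the proliferin family that share sequence, differed by -5.28 and -4.88 from AR7 and by -4.74 and -4.38 from CA77. A second probe of Prl2c5 gave -5.03 and -4.48. C3, the central complement component, was at 12.64 with CA39, 16.80 with AR7, 16.84 with CA77 and 16.72 untreated, and its second probe differed by -4.003 and -3.954. Nos2, the inducible nitric oxide synthase, was at 9.06 against 13.18, 13.51 and 13.52, and Lcn2, the iron-siderophore binding protein lipocalin 2, at 9.58 against 13.98, 13.57 and 14.07. All 3 genes were at about the same level on the AR7, CA77 and untreated arrays. Enpp2 encodes autotaxin, which makes lysophosphatidic acid. It was at 10.77 with CA39, 15.15 with AR7, 15.01 with CA77 and 13.88 untreated. Lrrc32, a membrane protein that holds latent TGF-beta, differed by -4.90 from AR7 and -4.54 from CA77, Zmynd15 by -5.12 and -4.74, Ncf4, a subunit of the phagocyte NADPH oxidase, by -4.51 and -4.30, and Gstt4, a theta-class glutathione transferase, by -4.71 and -4.21.

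**Figure D2:**
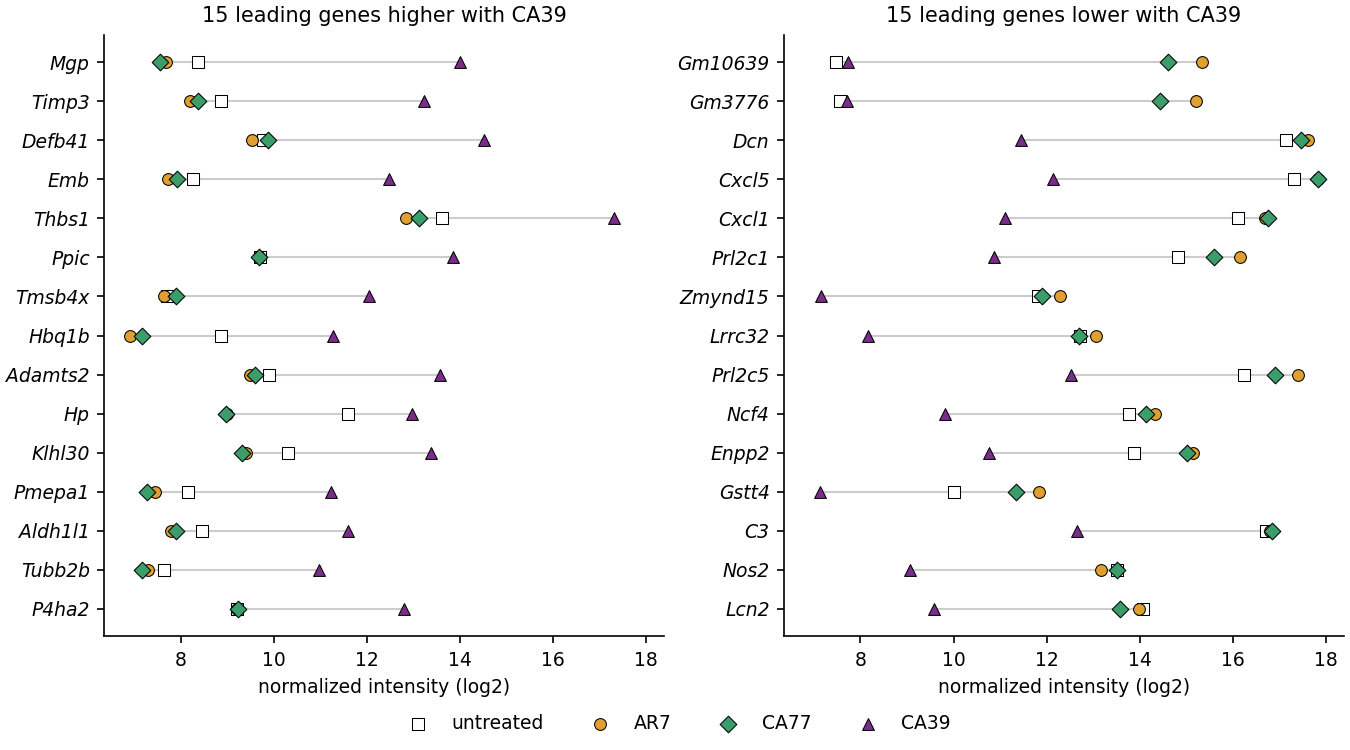
Normalized intensity (log2) of the 15 leading genes in each direction, with 1 marker for each array and a grey line over their range. For Mgp, Timp3 and Thbs1 the CA39 marker stands alone on the right, for Dcn, Cxcl5 and C3 it stands alone on the left, and for Gm10639 and Gm3776 it lies beside the untreated marker.

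Most of the measured chemokines were low with CA39. Of 18 chemokines and related cytokines in the list, 11 were compared and 7 were called lower, none higher, with a median of -2.79 beside -0.02 for all genes. With no filter on dim probes, which brings in the members near background, the median was -0.51, and in grid rows over 160 it was -1.13. Beside Cxcl1 and Cxcl5 these were Cxcl10, an attractant of T cells, the monocyte attractants Ccl2, Ccl7 and Ccl8, and Ccl5. Ccl2 was at 15.89 with CA39 and at 18.94, 18.94 and 18.93 with AR7, CA77 and in untreated cells, and Ccl7 was at 14.46 against 18.12, 18.32 and 17.97. Ccl5 was at 9.59 with CA39, 12.67 with AR7, 12.54 with CA77 and 12.24 untreated. Each of these genes had 1 low array and 3 high ones. Cxcl16, Ccl17 and the growth factor Csf1 differed by -0.75 to -0.29, but the other 2 probes of Csf1 by -0.01 to 0.16, and Ccl9 was 0.41 above AR7 and 1.03 above CA77. The remaining 7 members were not well above background on every compound array. Ppbp, a neutrophil chemokine outside the list and named after its values were seen, was well above background with AR7 (10.43) and CA77 (10.36) and not with CA39 (6.72), which makes it at least 11.7-fold lower than the mean of AR7 and CA77.

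The list of acute phase and NF-kB genes went in both directions, with a median of -1.03, or -0.61 with no filter on dim probes. Lower were 6 of its 12 compared members: Lcn2, C3, Il1rl1, Nfkbia, Tnfaip3 and Nfkbiz. Nfkbia encodes the inhibitor IκBα and Tnfaip3 the deubiquitinase A20, both induced by NF-kB and both acting as its brakes. Nfkbia was at 14.78 with CA39, 16.48 with AR7, 16.68 with CA77 and 16.32 untreated, and Tnfaip3 was at 11.07, 12.23, 12.36 and 12.76. Il1rl1, the IL-33 receptor, differed by -1.30 and -1.21, and at its other 2 probes the differences were -1.51 to -1.57. Higher were Hp and Cp, which encode the plasma proteins haptoglobin and ceruloplasmin. Cp was at 15.10 with CA39, 13.54 with AR7, 13.49 with CA77 and 14.43 untreated. Ptgs2, the inducible cyclooxygenase, differed by -0.25 and -0.09, and Saa3 by 0.65 and 0.57.

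Promoter windows are shown for lower genes of these lists, to set the chemokines beside the NF-kB inhibitor. They run from 250 bases before to 50 after the RefSeq start on GRCm38.p6. Windows were given for Cxcl1, Cxcl10 and Nfkbia among the genes above and not for Cxcl5, Ccl2 or Ccl7. Capitals mark every match, on either strand, to the letters GGGANNTTC, an NF-kB-like motif. In Cxcl1 the matches on both strands overlap.
Cxcl1, chr5:90890995-90891294, plus strand: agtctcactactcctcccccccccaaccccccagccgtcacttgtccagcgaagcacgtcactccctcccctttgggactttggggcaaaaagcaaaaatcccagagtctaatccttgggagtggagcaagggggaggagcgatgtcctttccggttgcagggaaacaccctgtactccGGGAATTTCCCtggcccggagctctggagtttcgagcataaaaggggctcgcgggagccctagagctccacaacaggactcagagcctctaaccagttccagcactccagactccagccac
Cxcl10, chr5:92348840-92349139, minus strand: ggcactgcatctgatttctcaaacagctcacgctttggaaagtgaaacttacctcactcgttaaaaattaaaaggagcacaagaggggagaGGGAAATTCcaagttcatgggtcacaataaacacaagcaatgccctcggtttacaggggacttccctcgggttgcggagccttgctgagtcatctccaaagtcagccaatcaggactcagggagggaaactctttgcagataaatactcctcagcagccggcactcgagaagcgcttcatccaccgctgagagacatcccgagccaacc
Nfkbia, chr12:55492598-55492897, minus strand: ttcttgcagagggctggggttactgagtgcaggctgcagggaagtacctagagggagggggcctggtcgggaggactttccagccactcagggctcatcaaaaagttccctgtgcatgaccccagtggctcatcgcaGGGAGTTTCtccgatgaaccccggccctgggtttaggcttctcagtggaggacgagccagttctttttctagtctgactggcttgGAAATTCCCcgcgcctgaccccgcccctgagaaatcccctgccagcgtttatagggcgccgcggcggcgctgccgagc
The matches lay between positions -71 and -61 from the start in Cxcl1, between -159 and -151 in Cxcl10 and, 1 on each strand, between -113 and -20 in Nfkbia. Of all 27025 genes with a window 1209 (4.47%) held such a match, and of the 10420 compared genes 4.53% did. The share was 7.81% for the genes called lower (10 of 128) and 3.56% for the genes called higher (10 of 281). The letters are a description of these windows and were not tested.

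Alpha-class glutathione transferases conjugate electrophiles with glutathione. All 4 compared members of the list were lower with CA39, with a median of -5.25. Gsta3 was at 6.98 with CA39, 10.72 with AR7, 10.03 with CA77 and 7.04 untreated, and Gsta4 at 10.99, 14.53, 14.02 and 9.84. Gsta2 was well above background with AR7 (14.11) and CA77 (13.45) and not with CA39 (6.58), so it was at least 122-fold lower with CA39 than the mean of the other compounds, and by at least 6.599 on the log2 scale than CA77, the nearer one. In untreated cells it was at 6.58. For these genes AR7 and CA77 stood above the other 2 arrays, whereas CA39 was at the untreated level or, in Gsta4, 1.15 above it. Measured against untreated cells the list had a median of 6.17 with AR7, 5.52 with CA77 and 0.20 with CA39.

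NRF2 targets shared this order in a weaker form. Of 28 members, all compared, 2 were called lower and none higher, and 24 lay below 0, with a median of -0.44. Nqo1, a quinone reductase, was at 11.30 with CA39, 13.19 with AR7, 13.23 with CA77 and 10.94 untreated. Aldh3a1, an aldehyde dehydrogenase, was at 11.99 against 15.95, 15.54 and 11.95, and its second probe differed by -4.80 and -4.54. Both genes also stand in the list of aryl hydrocarbon receptor targets, of which 4 were compared. Gstm1 and Gstp1, other glutathione transferases, were close to the threshold, at -1.01 and -1.10 from AR7 and -0.94 and -0.91 from CA77. Exceptions were Hmox1 (heme oxygenase 1) at 14.86 with CA39, 14.61 with AR7, 14.02 with CA77 and 13.64 untreated, and the cystine transporter Slc7a11 at 8.81, 8.40, 7.29 and 6.74. In this pair CA39 was the highest of the 4 arrays.

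The window of Gsta3 is shown with matches to the antioxidant response element TGACNNNGC in capitals.
Gsta3, chr1:21240335-21240634, plus strand: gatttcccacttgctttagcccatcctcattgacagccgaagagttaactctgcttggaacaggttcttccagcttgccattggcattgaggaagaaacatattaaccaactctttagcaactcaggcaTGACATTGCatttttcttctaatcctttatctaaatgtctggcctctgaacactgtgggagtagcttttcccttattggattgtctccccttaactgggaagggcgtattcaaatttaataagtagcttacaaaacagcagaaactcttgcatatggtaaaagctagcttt
The match lay between -121 and -113. Such matches were common, in 13.99% of all windows, 16.7% of those of compared genes, 14.1% of those called lower (18 of 128) and 17.1% of those called higher (48 of 281).

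Genes of cholesterol synthesis were high with CA39. Of 23 members, all compared, 15 were called higher and none lower, and 22 lay above 0. The median was 1.17, beside -0.02 for all genes. The pathway was covered from its start to its end. Hmgcs1, which makes HMG-CoA, was at 16.70 with CA39, 14.999 with AR7, 15.07 with CA77 and 15.59 untreated. CA39 was the highest array and untreated cells lay between it and the other compounds.

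Of the enzymes of the mevalonate branch, Mvk was at 16.59 with CA39, 15.06 with AR7, 15.09 with CA77 and 15.57 untreated, Pmvk at 15.94, 14.16, 14.04 and 14.70, and Mvd at 14.24, 12.42, 12.51 and 13.33. The second probes of Mvk and Pmvk differed from the other compounds by 1.54 to 1.82. Fdps and Fdft1, which build farnesyl diphosphate and squalene, were 1.17 and 1.07 above AR7 and 1.17 and 1.23 above CA77. Lss, Cyp51, Msmo1, Nsdhl and Dhcr7, which turn squalene epoxide into cholesterol, differed by 1.14 to 1.96. Idi1 and Insig1 were also called, but their spots lay in groups of deviating neighbours. Sqle, the squalene epoxidase, was just under the threshold at 0.99 and 0.96. Srebf2, the gene of the controlling factor SREBP2, differed by 0.40 and 0.24. Against untreated cells the list had a median of 0.83 with CA39 and of -0.49 with AR7 and with CA77, so the difference between the compounds was made up of levels on both sides of untreated cells.

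Fatty acid synthesis showed the same order with 9 members compared, of which 4 were called higher, none was lower, and the median was 1.12. Fasn (fatty acid synthase) was at 11.98 with CA39, 10.61 with AR7, 10.30 with CA77 and 11.01 untreated. Acaca, the carboxylase that makes malonyl-CoA, was at 15.37 against 14.30, 14.12 and 14.67, and Scd2, a desaturase, at 17.68 against 16.43, 16.20 and 16.60. Elovl6, an elongase, differed by 1.38 and 1.65, and Srebf1 by 0.08 and -0.03.

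Capitals in the window of Hmgcs1, the called gene of cholesterol synthesis in which they were found, mark the sterol regulatory element TCACNCCAC.
Hmgcs1, chr13:119690101-119690400, plus strand: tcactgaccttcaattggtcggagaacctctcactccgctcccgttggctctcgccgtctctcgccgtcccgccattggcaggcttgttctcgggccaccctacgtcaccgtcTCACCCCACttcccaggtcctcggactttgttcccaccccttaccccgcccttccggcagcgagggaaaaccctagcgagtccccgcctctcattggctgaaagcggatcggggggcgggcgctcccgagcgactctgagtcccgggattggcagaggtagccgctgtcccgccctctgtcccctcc
The match lay between -137 and -129. Of all windows 1.44% held these letters, of those of compared genes 1.47%, of those called higher 4.63% (13 of 281) and of those called lower 0.781% (1 of 128). Of the 13, Hmgcs1 was in the list of cholesterol synthesis, and Adamts1 and Spp1 were in lists of the matrix.

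**Figure D3:**
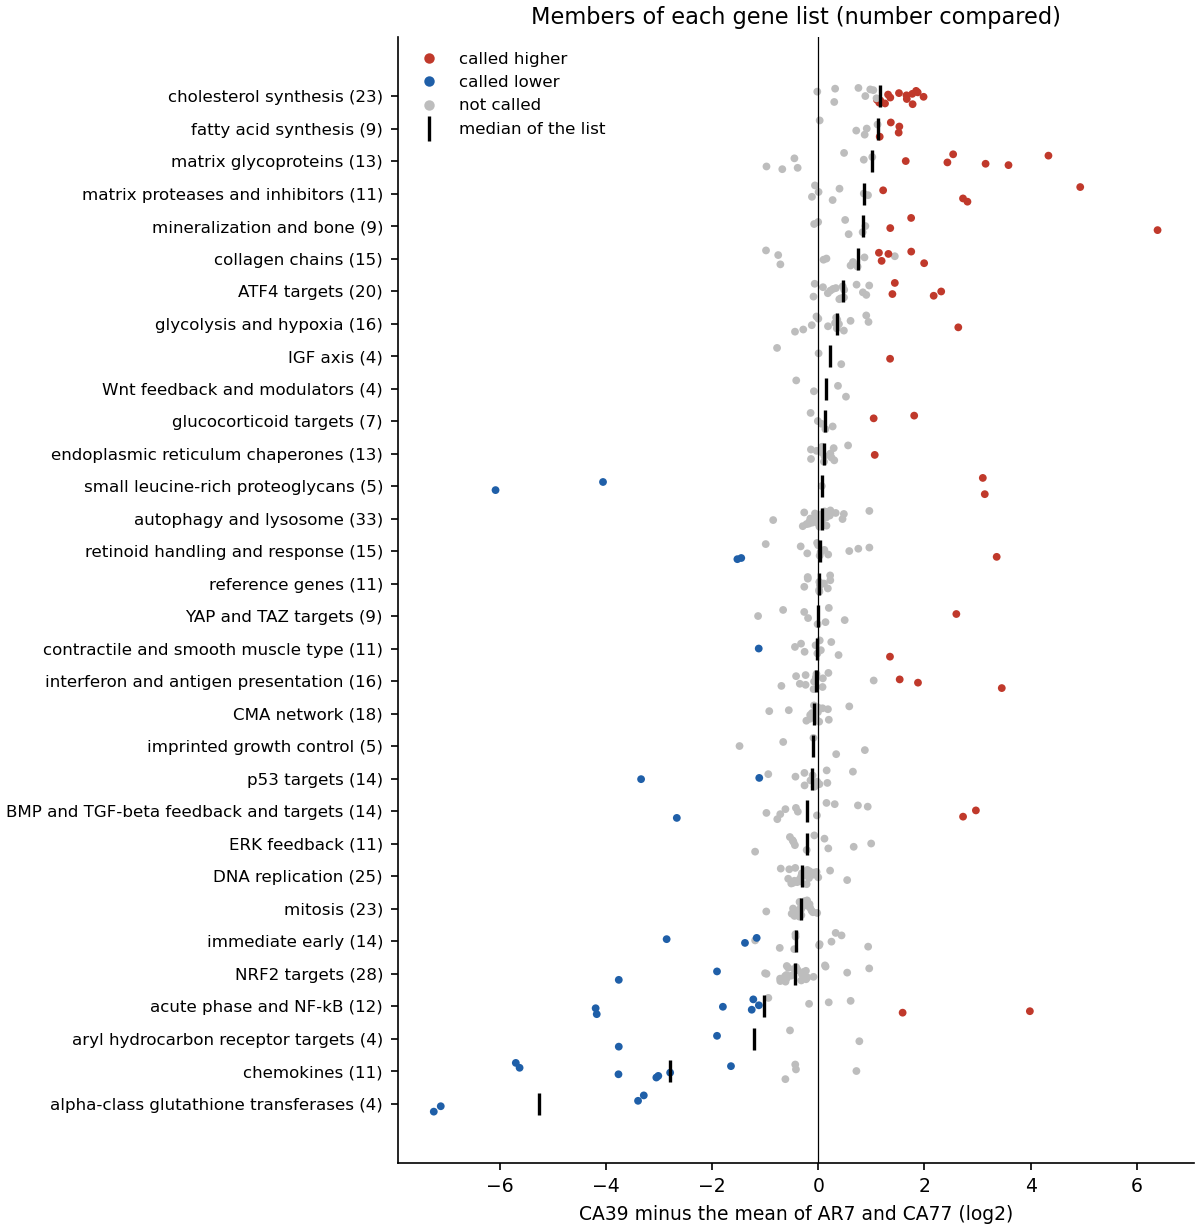
Log2 difference of CA39 from the mean of AR7 and CA77 for each compared member of each list with at least 4 of them, sorted by the list's median (black bar), with called members in red or blue. Cholesterol synthesis has the highest median (1.17), alpha-class glutathione transferases (-5.25) and chemokines (-2.79) the lowest, and the reference genes lie around 0.02.

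Most called genes of the extracellular matrix were higher with CA39. Of 15 collagen chains compared, 5 were called higher and none lower, with a median of 0.74, or 0.33 in grid rows over 160. Col1a1, a chain of collagen I, was at 16.65 with CA39, 14.55 with AR7, 14.77 with CA77 and 15.59 untreated, and Col6a3 at 13.55, 11.80, 11.79 and 12.36. Col3a1 and Col6a2 were also higher, as was Col6a1, whose spot lay among deviating neighbours. In these genes the order of the arrays was CA39, untreated, then the other compounds. Col1a2, the partner chain of Col1a1, differed by 0.67 and 0.64, whereas Col8a1 differed by -0.91 and -1.05.

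Glycoproteins of the matrix gave 6 higher genes of 13, none lower, and a median of 1.02. Fn1 (fibronectin) was at 17.98 with CA39, 16.30 with AR7, 16.37 with CA77 and 16.51 untreated. Fbn1 (fibrillin 1), the scaffold of microfibrils, was at 12.12 against 9.63, 9.75 and 10.27. Fbln2 and Fbln5, fibulins that take part in elastic fibres, were at 14.14 and 13.35 with CA39, 10.73 and 9.99 with AR7, 10.38 and 10.40 with CA77 and 11.13 and 11.17 untreated. Thbs2, like Thbs1, was higher, by 2.60 and 2.48. Fbln1, another fibulin, lay on the other side, at -0.91 and -1.04.

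Small leucine-rich proteoglycans moved apart. Dcn and Lum (lumican) were lower and Ogn (osteoglycin) and Bgn (biglycan) higher, of 5 compared. Lum was at 10.39 with CA39, 13.98 with AR7, 14.91 with CA77 and 14.60 untreated. Ogn was at 11.88 with CA39, 8.72 with AR7, 8.84 with CA77 and 9.67 untreated. Bgn was at 14.23 against 11.06, 11.12 and 11.91, on a spot among deviating neighbours. The median of the list, 0.07, therefore describes none of its called members, and it moved to -1.99 without grouped deviating spots and to 1.58 in grid rows over 160.

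Of 11 matrix proteases and inhibitors, 4 were higher and none lower, with a median of 0.86, or 0.33 with no filter on dim probes. Beside Timp3 these were Timp1 and the aggrecan-cleaving proteases Adamts1 and Adamts5. Adamts1 was at 14.38 with CA39, 11.53 with AR7, 11.62 with CA77 and 12.01 untreated. Mmp2, a gelatinase, differed by 0.86 and 0.86, and Mmp14, which activates it, by 0.92 and 0.95. Mmp9 was not well above background with CA39 (6.09) and was at 9.49 with AR7 and 8.99 with CA77, which makes it at least 5.26-fold lower than their mean and by at least 2.14 on the log2 scale than CA77. In the list of mineralization, 3 of 9 compared genes were higher: Mgp, Spp1 (osteopontin) at 14.89 with CA39 against 13.11, 13.16 and 13.54, and Phex, an endopeptidase of phosphate control, at 10.29 against 8.97, 8.89 and 9.08. Sp7, the osteoblast factor osterix, differed by -0.15 and 0.14.

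Some genes were well above background on only 1 side and have a bound in place of a difference. The dim side was set to the 1st percentile of the detected signal of its array, or to the probe's own value where that was higher. Fold bounds are set against the mean of AR7 and CA77, and the counts require 2-fold against each. By this rule, of 36983 gene names on the array, 154 were at least 2-fold higher with CA39 and 55 at least 2-fold lower. A spot among deviating neighbours was found for 46 of the higher and 2 of the lower genes. With a floor at the lowest detected signal, chosen after seeing the data, the counts were 399 and 101. Postn encodes periostin, a matrix protein of bone and of wounds. It was at 14.18 with CA39 and was at background elsewhere, 4.78 with AR7, 5.96 with CA77 and 5.78 untreated, so it was at least 204-fold higher than their mean and by at least 7.39 on the log2 scale than AR7, whose limit was the higher one. P2ry14, a receptor for UDP-glucose, was at least 88.8-fold higher and the growth factor receptor Pdgfrb at least 4.80-fold. On the other side Blnk, an adaptor of B cell receptor signalling, was at 14.37 with AR7, 14.59 with CA77 and 13.91 untreated and not well above background with CA39, at least 198-fold lower. These genes other than Postn and Pdgfrb were named after their values were seen. Tnfrsf11b, the decoy receptor osteoprotegerin, was at 12.15 with CA39, 6.87 with AR7, 7.11 with CA77 and 7.28 untreated, and it was not compared because it was not well above background on every compound array.

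Genes of TGF-beta and BMP signalling had a median of -0.20 over 14 compared, which became 0.16 with no filter on dim probes, and 3 were called. Inhba, a subunit of activin, was at 13.78 with CA39, 10.78 with AR7, 10.84 with CA77 and 11.83 untreated. Grem1, a BMP antagonist, was at 11.82 against 9.01, 9.17 and 8.93. Bmper, another BMP-binding protein, was lower, at 9.43 against 12.17, 12.02 and 11.99. Of 9 targets of YAP and TAZ, Ccn2 (connective tissue growth factor) was higher, at 16.38 with CA39, 13.54 with AR7, 14.02 with CA77 and 14.73 untreated, while Ccn1 differed by -0.86 from AR7 and -1.41 from CA77. Among contractile genes Acta2 (smooth muscle actin) was higher by 1.30 and 1.40 and Des (desmin) lower, at -1.06 and -1.18. For Acta2 untreated cells were within 2-fold of CA39 but not of both other compounds.

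The CMA network, which the compounds were made to act on, held 18 genes, all compared, and none was called. Its median was -0.08. Of all genes compared 2.26% were called higher and 1.08% lower, and none in a list of this size is near these shares. Lamp2 was at 15.10 with CA39, 15.18 with AR7, 15.26 with CA77 and 15.08 untreated, and its second probe differed by -0.30 and -0.29. Which splice forms of Lamp2 these probes read was not determined. Hspa8 was at 17.82, 17.94, 17.88 and 17.87. Among the regulators, Rara was 0.64 above AR7 and 0.53 above CA77, with 0.58 and 0.41 at its second probe, and Nfatc1 was lower, at -0.87 and -0.98, with -0.91 and -0.95 at its second probe. Nfe2l2, the gene of NRF2, was at -0.42 and -0.69. These 3 were among the 9 of 18 members whose difference from the mean of AR7 and CA77 exceeded the error between spots. Of the 18 members 13 lay below 0. Ncor1 differed by 0.03 and -0.04 at its brightest probe and by 0.25 to 0.33 at its other 2 probes, so its probes disagreed on a difference larger than the error between spots. Ctsa, a lysosomal protease that cleaves Lamp2a, differed by 0.17 and 0.23, and Rac1, Akt1, Rictor and Eef1a1 by -0.13 to 0.10. Of 33 compared genes of macroautophagy and the lysosome, none was called, again near the shares over all genes, and their median was 0.06. The widest members reached -0.85 (Ctsz, a cathepsin) and 0.96.

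Among genes of retinoid handling, 15 of 21 were compared, 1 was higher and 2 were lower, with a median of 0.03. Crabp1, a cytosolic binding protein for retinoic acid, was at 11.49 with CA39, 8.09 with AR7, 8.18 with CA77 and 8.62 untreated. Aldh1a1 makes retinoic acid from retinal. It was at 13.32 with CA39, 14.94 with AR7, 14.75 with CA77 and 15.33 untreated, and Aldh1a7, which is close to it in sequence, was at 13.47, 14.98, 14.86 and 15.56. Stra6, the receptor for retinol binding protein and itself induced by retinoic acid, differed by -1.18 and -0.80 and Rdh10, a retinol dehydrogenase, by 1.00 and 0.93. Of other targets of retinoic acid, Cyp26b1 differed by 0.05 and 0.32, Tgm2 by -0.16 and 0.12 and Dhrs3 by -0.24 and -0.18, whereas Rarb and Cyp26a1 were not well above background on every compound array.

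Lists of stress and growth were measured too. Of 20 targets of ATF4, the factor of the integrated stress response, 4 were higher and none lower, with a median of 0.47. Nupr1 was at 15.12 with CA39, 12.91 with AR7, 12.70 with CA77 and 13.07 untreated, and Chac1, which degrades glutathione, at 15.41, 13.42, 13.05 and 13.41. Trib3 and Ddit4 were also higher, and Asns differed by 0.42 and 0.43. Of 13 endoplasmic reticulum genes Herpud1 was called, at 1.08 and 1.04, and their median was 0.12. In the interferon list 3 of 16 genes were higher: Isg15, Ifit1 and Bst2, an antiviral membrane tether at 11.24 with CA39 against 7.78, 7.79 and 8.35. For Ifit1 untreated cells were within 2-fold of CA39 but not of both other compounds. Oas1a, Oasl2 and Usp18, other interferon-induced genes, differed by at most 0.26, and the median of the list was -0.04.

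No gene of DNA replication (25 compared, median -0.31) or mitosis (23 compared, median -0.32) was called. In lists of this size that is near the shares over all genes, 2.26% higher and 1.08% lower. All 23 mitosis genes and 23 of the 25 replication genes were nevertheless below 0. Of the immediate early genes 3 of 14 were lower: Fosl1, Jun and Ier3. Of 14 p53 targets, Fas, the death receptor, was at 10.44 with CA39 against 13.63, 13.92 and 13.85, and Gdf15 was lower, at -1.12 and -1.10, while Cdkn1a and Mdm2 differed by -0.45 to 0.07. Higher were the glucocorticoid targets Tsc22d3 and Sgk1 of 7, Car9 (carbonic anhydrase 9) of 16 genes of glycolysis and hypoxia, and Igfbp4 of 4 genes of the IGF axis. No gene was called among 11 of ERK feedback, 4 of Wnt feedback, 1 Notch target and 5 imprinted genes, again near the shares over all genes. The 11 reference genes differed by -0.26 to 0.23 from the mean of the other compounds, with a median of 0.02.

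Markers of other cell types were checked beside these results. Of 9 fibroblast markers 7 were compared, and Vim (vimentin) was at 17.62 with CA39, 17.20 with AR7, 17.48 with CA77 and 17.41 untreated. Col1a1 and Pdgfra were called higher, the latter on a spot among deviating neighbours. The defining leukocyte gene Ptprc (6.45 with CA39) and the macrophage gene Adgre1 (6.85) were not well above background on every compound array, nor were the epithelial genes Epcam and Cdh1. Krt8, a keratin of simple epithelia, was called higher, at 10.04 against 7.61, 7.29 and 7.65. All 4 compared epithelial markers lay above 0, with a median of 0.80, and so did the 3 compared macrophage markers Csf1r, Lyz2 and Itgam, with a median of 0.51 and none called. The second probe of Csf1r was at 0.02 and 0.06, within the error between spots, and the other 2 of Itgam were below 0, at -1.12 to -0.32. Of the endothelial markers 3 of 4 were compared and none was called, with a median of -0.05, and of the skeletal muscle markers Myod1 alone was compared, at 0.18. The part of such genes in the results was not tested. Of the adipocyte markers 3 of 8 were compared and none was called, and Adipoq and Plin1 were not well above background.

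The untreated array placed the called genes. Of the 466 higher genes, untreated cells were within 2-fold of both AR7 and CA77 but not of CA39 in 331 (71.0%). They were within 2-fold of CA39 but not of both other compounds in 11 (2.36%), and of all compounds in 110 (23.6%). In 14 (3.00%) they were within 2-fold neither of CA39 nor of both others. Of the 223 lower genes the same counts were 133 (59.6%), 17 (7.62%), 52 (23.3%) and 21 (9.42%). The untreated level lay between CA39 and both other compounds in 297 higher genes (63.7%) and 152 lower genes (68.2%). The untreated array lay in another slide row than the others, and whether its culture received DMSO is not given in the sources used here. What these add to the counts was not tested.

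**Figure D4:**
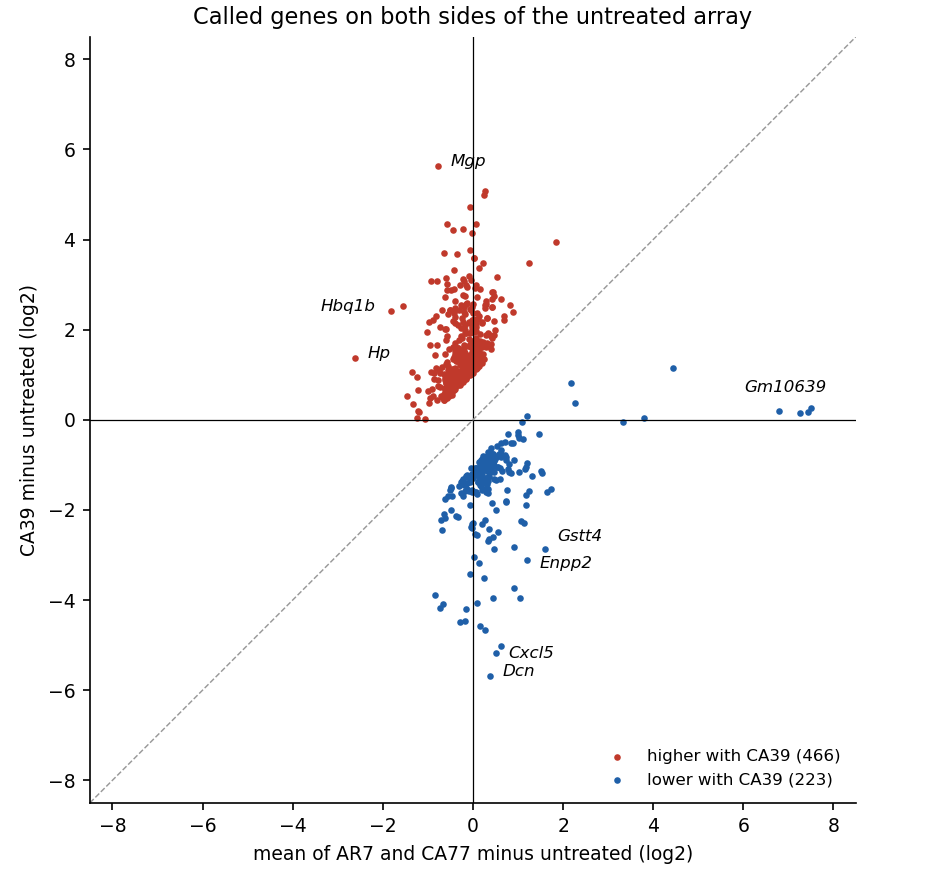
For each called gene, the mean of AR7 and CA77 minus untreated (log2, horizontal) is set against CA39 minus untreated (log2, vertical), with the dashed line marking equal values. Most genes lie along the vertical axis, where the CA39 array alone departs from untreated cells. Along the horizontal axis lie 17 lower genes, among them Gm10639, and 11 higher ones. With CA39 these were within 2-fold of untreated cells, but not with both AR7 and CA77.

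A second probe of a gene reads the same RNA at another place, so it bears on the probe and not on the culture. Among 4709 genes with 2 kept probes the differences at the brightest and second probe correlated at r = 0.70 across genes, which are not independent. Of 79 higher genes with a second probe 68 had it on the same side and 44 past 2-fold, and of 42 lower genes 41 and 32. The median size was 1.504 at the brightest probe and 1.266 at the second one. The brightest probe had decided the call, so a smaller value at the second probe is a description of that choice too.

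**Figure D5:**
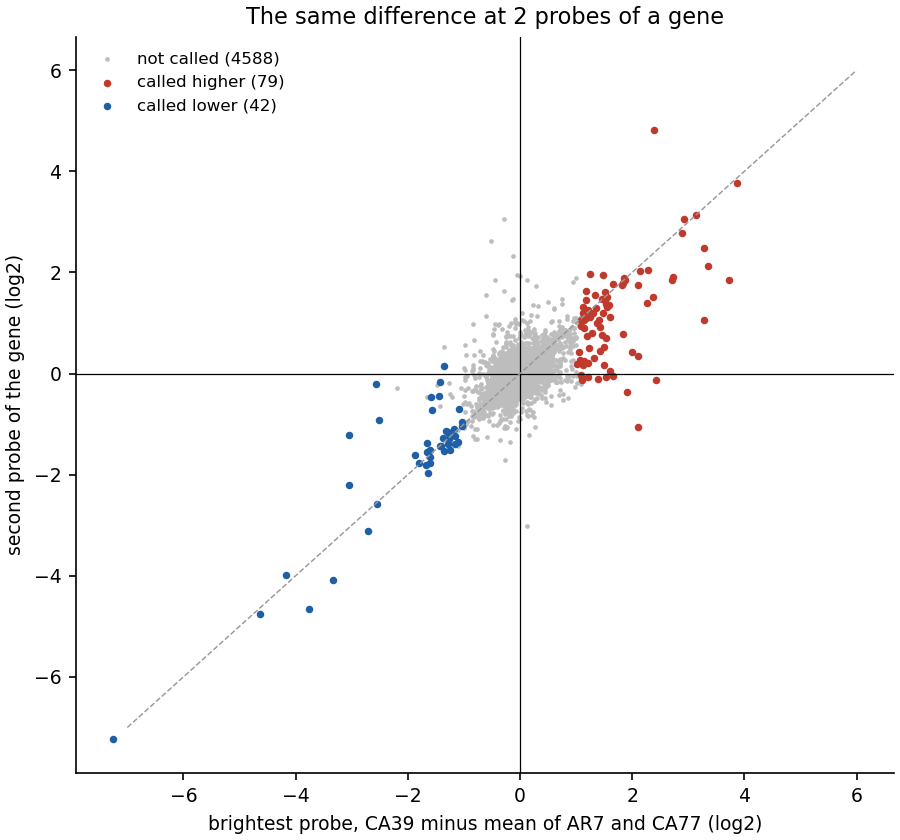
The log2 difference of CA39 from the mean of AR7 and CA77 at the brightest probe of a gene (horizontal) and at its second probe (vertical) for 4709 genes, with the dashed line marking equal values. The 42 lower genes lie mostly near the line, whereas in 11 of the 79 higher genes the second probe was not above both AR7 and CA77.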

How the data were processed

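Per the labels and the study's methods, total RNA of NIH-3T3 cells was labelled with Cy3, hybridised to Agilent Mouse 8x60K arrays (design build mm9) and scanned, and the authors processed the values with the oligo package and RMA. The deposited scanner files (Feature Extraction 10.7.3.1) hold intensity of 62976 spots per array. The deposited series table holds the scanner's background-subtracted intensity of the same spots. These files were used, not RMA values. The study's title names RNA-Seq, but the values are array intensities.

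Median spot intensity was background corrected with normexp (limma 3.58.1, R 4.3.3, offset 0), control spots were left out, the 4 arrays were quantile normalized, log2 was taken, spots flagged as outliers (142 to 328 per array) were dropped and spots of a probe were averaged. Quantile normalization forces 1 distribution on all arrays. No spot was saturated, and 52.1% to 69.7% of the probes were detected per array. A probe detected on the 3 compound arrays was kept, and the brightest kept probe stood for its gene. The number of arrays, 1 per group, limits the precision. Named are the 15 called genes with a symbol farthest in each direction by the smaller difference and not in a group of deviating neighbouring spots, called members of 33 gene lists, brighter members of each list and the CMA network. A deviating spot counted as grouped with at least 2 others within 1 row and column. Members and lists were chosen with earlier results of these data known. The gene table and the calling rule were tested on simulated data. Alternatives were other background corrections, scalings, filters, thresholds, reference arrays and parts of the array. Promoter sequences came from RefSeq (GRCm38.p6), matched by symbol. Gene coordinates were not used. Some list members are counted in their lists but not reported by name here.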

Additional observations from a re-analysis of the deposited data

Results flagged for a closer look

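In 14 called genes CA39 lay at least 2-fold on the opposite side of untreated cells from both AR7 and CA77. With 1 array per group this opposition was not tested, and all values below are log2 differences from the untreated array, which lay in the other slide row. Enpp2, the gene of autotaxin, was at -3.11 with CA39, 1.27 with AR7 and 1.13 with CA77. Gstt4, a theta-class glutathione transferase, was at -2.87, 1.84 and 1.34, Mep1a, a subunit of the protease meprin, at -2.24, 1.04 and 1.09, and the zinc transporter gene Slc39a4 at -1.61, 1.88 and 1.41. Ier3, an immediate early gene, was at -1.67 with CA39, 1.01 with AR7 and 1.36 with CA77, and Myom2, which encodes a sarcomere protein, at -1.05, 1.13 and 1.22.

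Of the Serpinb9 family of granzyme B inhibitors, whose copies share sequence and may be read by each other's probes, Serpinb9d was at -1.54 with CA39, Serpinb9e at -1.18, Serpinb9f at -1.13 and Serpinb9g at -1.25, while they were at 1.55 to 2.16 with AR7 and 1.07 to 1.30 with CA77.

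The opposite order was found in 4 genes. Hp, the gene of haptoglobin, was at 1.37 with CA39, -2.60 with AR7 and -2.62 with CA77, and Hbq1b, a theta globin, at 2.42, -1.95 and -1.68. Itgbl1, an integrin-like protein, was at 2.52, -1.80 and -1.29, on a spot among deviating neighbours, and the homeobox gene Meox2 at 1.07, -1.41 and -1.28.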

How the results depend on the processing

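All values rest on 1 culture per compound, and no alternative below adds one. Every called gene named by the rule or as a list member kept its direction under every alternative run in which it was measured, and 103 stayed at or past 2-fold against the reference used, while Gdf15, Herpud1, Nfkbiz and Sgk1 did not. Called genes numbered 417 to 556 higher and 190 to 275 lower under the other background corrections, scalings and sources, while a comparison with AR7 alone, CA77 alone or their mean holds all 689 by construction of the call. The share of calls that were higher, 67.6%, stayed between 62.2% and 70.5%. No paired analysis was possible because each group had 1 array. Dim probes are limited by signal over background.

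With no filter on dim probes, 1154 genes were higher and 483 lower, the SDs of the differences were 0.68 (CA39 and AR7), 0.65 (CA39 and CA77) and 0.54 (CA77 and AR7), and 2687, 2748 and 1613 genes passed 2-fold. List medians were then -7.11 for alpha-class glutathione transferases, -0.53 for aryl hydrocarbon receptor targets, -0.51 for chemokines, -0.61 for acute phase and NF-kB, 0.51 for mineralization, 0.33 for proteases and inhibitors, 0.16 for BMP and TGF-beta, 0.30 for Wnt, -0.0483 for Notch, -0.25 for immediate early genes and 0.0208 for ERK feedback. At a 1.5-fold threshold 1062 genes were higher and 619 lower, and 2449, 2261 and 426 passed it in the same 3 pairs.

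With probes in grid rows over 160 only, which leaves fewer genes, 262 were higher and 142 lower, and 486, 482 and 28 passed 2-fold in the 3 pairs. List medians were then -7.11 for alpha-class glutathione transferases, -0.53 for aryl hydrocarbon receptor targets, -1.13 for chemokines, -0.94 for immediate early genes, -0.39 for BMP and TGF-beta and for the IGF axis, -0.24 for contractile genes, 0.14 for YAP and TAZ targets, 0.25 for endoplasmic reticulum chaperones, 0.33 for collagens, 0.57 for mineralization, 1.31 for cholesterol synthesis, 1.33 for glycoproteins and 1.58 for small proteoglycans. The cause was not tested beyond the members left out.

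From the scanner's processed signals the pair of CA77 and AR7, with 154 genes past 2-fold in the report, had 253 after 75th percentile scaling. It had 244 after quantile normalization of these signals, and 249 from the background-subtracted signals of the series table. In the same order the median of alpha-class glutathione transferases was -5.80, -5.71 and -5.72 and that of small proteoglycans -0.204, -0.113 and -0.065, and quantile normalization gave 0.88 for collagens. A normexp offset of 50 gave -5.03 for alpha-class glutathione transferases and 0.68 for mineralization. Against AR7 alone the medians were -5.62 for alpha-class glutathione transferases, -0.30 for immediate early genes, 0.10 for the interferon list, 0.63 for mineralization and -0.0682 for small proteoglycans. Against CA77 alone they were -4.88 for alpha-class glutathione transferases, -0.017 for BMP and TGF-beta, 1.25 for fatty acid synthesis and 0.20 for small proteoglycans. The small proteoglycans, with 5 genes of opposite direction, moved to -1.99 without grouped deviating spots, since Bgn was then left out. With a floor at the lowest detected signal, chosen after seeing the data, bounds of at least 2-fold were found for 399 genes higher and 101 lower. The cause of these shifts was not tested.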

Other observations

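Called genes outside the lists were looked at after their values were seen, so the following values are a description and not a test of any group. Some genes called lower outside the lists are induced by NF-kB or act as its regulators. How many such genes were not called was not counted. Traf1, an adaptor of TNF receptors, was at 9.12 with CA39, 13.16 with AR7, 12.55 with CA77 and 11.94 untreated, and Zc3h12a, an RNase that degrades cytokine mRNA, at 8.91, 11.37, 11.13 and 11.28. Tnip3, Nfkbid, Nfkbie, Birc3, Il1r1, Nod1, Tnip1 and Relb were lower by smaller amounts. Against AR7 and CA77, Tnip3 was at -1.81 and -1.87, Nod1 at -1.07 and -1.01 and Relb at -1.004 and -1.05. The common receptor chain of IL-3 and GM-CSF, Csf2rb, differed by -2.96 and -3.12, with -1.12 and -1.29 at its second probe, and its close copy Csf2rb2 by -3.07 and -3.03.

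Serpin genes went in opposite directions. Serpina1a, Serpina1c and Serpina1e, near-identical genes of alpha-1-antitrypsin, were at 11.29, 10.96 and 11.04 with CA39 and at 7.72 to 7.95 with the other compounds. Second probes gave less, with differences of 2.07 and 2.21 for Serpina1a and 1.10 and 1.02 for Serpina1e. Serpina3f, Serpina3i and Serpina3b, of the antichymotrypsin family, were lower by -1.54 to -3.61. Genes known from axon guidance were called in both directions. Slit2 was at 9.89 with CA39, 7.69 with AR7, 7.96 with CA77 and 8.28 untreated, its family member Slit3 differed by 1.83 and 1.56, the Slit receptor Robo2 by 2.14 and 1.64 and Sema3a by 2.59 and 2.15, with 1.43 and 1.61 at its second probe. The semaphorins Sema7a, at -1.89 and -1.59, and Sema4a, at -1.57 and -1.32, were lower. Robo3 was lower too, at -1.054 and -1.004. The semaphorin receptor Plxnd1 was at -1.503 and -1.205, but at 0.04 and 0.27 at its second probe. Lox, the enzyme that crosslinks collagen, was at 15.89 with CA39, 14.08 with AR7, 13.98 with CA77 and 14.60 untreated. Among the called genes higher with CA39 was also Acsl3, which activates fatty acids, at 1.58 and 1.58. Aacs, an acetoacetyl-CoA synthetase, was higher at 1.56 and 1.76, and Lpin1 at 1.43 and 1.31. Gstt1, Gstt3 and Mgst1, other glutathione transferases, were lower, by -1.30 to -1.98, and each was higher with AR7 than in untreated cells.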
